A study of Mus musculus with 20 samples.

Results

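The CpGs described here are the autosomal CpGs listed at both ages whose methylation was exactly 0% in every one of 20 libraries of mouse brain DNA. They numbered 78198 of 1108530 autosomal CpGs listed at both ages, or 7.05%. The rule used the percentages themselves, so a level of 0% is not a result, and it is described without a test. Each listed position is counted as a CpG, and the C of the forward strand and the C of the reverse strand of a CpG pair are listed apart.

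The assay was reduced representation bisulfite sequencing. It cuts DNA with an enzyme so that mainly CpG-dense fragments are read. The source was brain homogenate after a selection step that enriches microglia, the immune cells that live in brain tissue. HEM mice carried a transgene on the X chromosome that overexpresses human wild-type full-length α-synuclein, which forms aggregates in Parkinson disease, driven by the murine Thy-1 promoter. WT mice were the controls. Both were of the B6D2F1/J background, and the label of 1 HEM library at 13 months gives no strain. At 13 months of age 8 libraries were HEM and 4 were WT, and at 3 months of age 4 were HEM and 4 were WT. For 3 months the series' text gives 3 WT mice where 4 libraries carry that label, and all of them entered. The labels do not tie each library to an animal, so a p-value measures the spread between libraries. A percentage over a homogenate averages all its cells, and a change in the mix of cells cannot be told apart from a change within a cell type.

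The values are percent methylation with no read counts, so the depth behind each 0% is unknown. A CpG read by few reads reaches 0% more easily than a CpG read by many, and no limit on the true level can be given. The mean over all shared autosomal CpGs ran from 29.1% to 31.8% across the 20 libraries, and the share of CpGs at exactly 0% ran from 38.02% to 47.15%. RNA was not analysed here, so the label of microglia could not be checked against marker expression.

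In mammalian DNA most CpGs carry a methyl group, and the exceptions cluster in CpG islands. These are short stretches dense in C, G and CpG that cover the start of most genes used in every cell and of many genes that direct development. Methylated promoters are usually silent, and germline genes are a known class whose promoters are methylated in body tissues. An unmethylated promoter can be active or silent: in many tissues the islands of developmental regulators are held silent by Polycomb proteins without methylation.

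The promoters of 6 genes show what the set does and does not hold. Each stretch below is taken from the 250 bases before an annotated start (RefSeq, GRCm38.p6, the assembly of mm10), written 5′ to 3′ on the strand of the gene. Bases inside a coding gene whose end falls in the stretch were left out, which shortened those of Usp3, Ugcg and Ddx25. The starts of Gata2 and Sall1 lie inside the annotated span of their own gene. Capitals mark positions at 0% in all 20 libraries. A capital C was read on the strand shown and a capital G on the other strand. The first 3 belong to the genes with the longest unmethylated runs that have such a stretch, and the others to a developmental regulator, a germline gene and a microglia gene.
Usp3, chr9:66593149-66593365, minus strand: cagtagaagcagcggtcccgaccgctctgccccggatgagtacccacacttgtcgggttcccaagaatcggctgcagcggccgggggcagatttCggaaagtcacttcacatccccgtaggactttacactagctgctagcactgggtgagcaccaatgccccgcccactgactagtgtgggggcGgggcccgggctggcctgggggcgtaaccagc
Ugcg, chr4:59189300-59189506, plus strand: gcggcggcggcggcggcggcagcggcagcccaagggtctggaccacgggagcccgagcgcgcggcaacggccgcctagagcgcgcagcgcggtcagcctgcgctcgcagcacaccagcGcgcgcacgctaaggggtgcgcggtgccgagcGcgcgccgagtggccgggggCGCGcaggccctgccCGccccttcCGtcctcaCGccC
Spred1, chr2:117120821-117121070, plus strand: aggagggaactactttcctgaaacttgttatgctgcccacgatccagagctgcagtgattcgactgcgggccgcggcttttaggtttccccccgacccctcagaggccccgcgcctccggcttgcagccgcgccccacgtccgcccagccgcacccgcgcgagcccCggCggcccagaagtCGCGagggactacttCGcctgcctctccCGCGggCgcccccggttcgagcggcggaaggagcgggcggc
Gata2, chr6:88198414-88198663, plus strand: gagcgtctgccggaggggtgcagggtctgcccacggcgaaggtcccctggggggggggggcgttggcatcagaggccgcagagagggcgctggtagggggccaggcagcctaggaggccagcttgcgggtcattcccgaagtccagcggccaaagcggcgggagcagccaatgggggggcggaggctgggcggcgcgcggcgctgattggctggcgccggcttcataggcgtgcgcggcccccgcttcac
Ddx25, chr9:35558471-35558559, minus strand: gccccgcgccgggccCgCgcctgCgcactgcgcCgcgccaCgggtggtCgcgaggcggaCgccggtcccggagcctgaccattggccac
Sall1, chr8:89043513-89043762, minus strand: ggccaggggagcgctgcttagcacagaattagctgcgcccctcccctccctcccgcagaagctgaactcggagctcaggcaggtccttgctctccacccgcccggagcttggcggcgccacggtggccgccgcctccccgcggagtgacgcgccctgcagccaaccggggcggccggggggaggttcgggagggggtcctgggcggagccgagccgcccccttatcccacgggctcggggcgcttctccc

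The stretch of Ugcg, the gene of glucosylceramide synthase, held 13 such positions among 24 listed, most of them close together at its 3′ end. Spred1, an inhibitor of Ras signalling, held 13 of 22, and Usp3, a ubiquitin protease that acts on histones, held 2 of 10. Ddx25, an RNA helicase of male germ cells, held 7 of 16. Gata2, a transcription factor of blood and brain development, and Sall1, a transcription factor that marks microglia in the adult brain, held none of 19 and none of 31. Both were nevertheless low. The mean over the 19 positions of Gata2 was 0.246% ± 0.153 (SD, n = 20 libraries), from 0.0218% to 0.621%, and over the 31 of Sall1 it was 0.741% ± 0.281, from 0.277% to 1.19%. For comparison, the 16 positions of Ddx25 averaged 0.427% ± 0.326, with the lowest library at 0%. A stretch without capitals can therefore still be low in methylation, as those of Gata2 and Sall1 were.

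The threshold of 20 libraries divides CpGs that differ little. A further 97578 CpGs were at 0% in 19 libraries, more than in all 20, and their single value above 0 had a median of 1.28% with quartiles of 0.714% and 2.38%. It was at most 5% in 93.3% of them, over 10% in 1036, and 36.8% at the highest. The library that held the value above 0 was most often HEM 13 months replicate 8, with 8361 CpGs, and least often WT 13 months replicate 7, with 3046. CpGs at 0% in no library numbered 470079. Besides the set, 430583 CpGs (38.8%) were at 5% or less in every library and are called the other low CpGs below. At the other extreme 121593 CpGs (10.97%) were at 80% or more in every library.

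**Figure D1:**
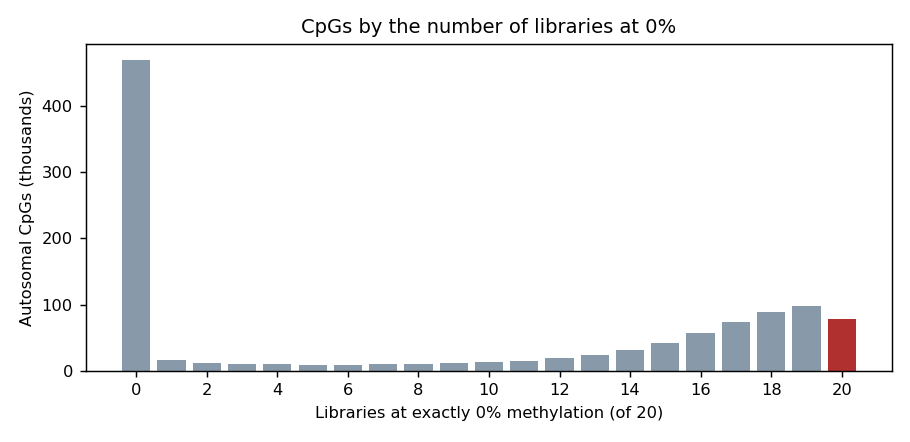
Number of autosomal CpGs (vertical axis, in units of 1000) by how many of the 20 libraries read them at exactly 0% (horizontal axis). The red bar is the set described here, 78198 CpGs, and the bar beside it holds the 97578 CpGs at 0% in 19 libraries, while 470079 CpGs were at 0% in none.

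Unmethylated CpGs lay close to the ends of genes. Of the set, 82.4% (64471 CpGs) lay within 1 kb of either end of an annotated gene, against 49.7% of all listed CpGs and 10.7% of the CpGs at 80% or more. The median distance to the nearest gene end was 294 bp, against 1021 bp for all and 8656 bp for the highly methylated CpGs. Within 200 bp the shares were 38.1% of the set and 19.6% of all, and within 5 kb they were 94.6% and 70.6%. Ends of protein-coding genes accounted for most of this, with 78.3% of the set within 1 kb of one, while 4.16% lay that near only to an end of a non-coding gene or pseudogene. The set was not set apart from its nearest relatives: the CpGs at 0% in 19 libraries had 82.6% within 1 kb, and the other low CpGs 79.5% with a median distance of 339 bp.

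The 2 ends were told apart in genes with 1 annotated start and a length over 4 kb, of which there were 16398. Within 1 kb of their starts 43674 of 323349 listed CpGs were at 0% in all 20 libraries, or 13.5%, and the mean methylation of the listed CpGs was 2.83%. Within 1 kb of their other ends, away from any start, 273 of 17013 were, or 1.60%, and the mean was 53.0%. In these genes the set lay at the starts.

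Around starts the share of the set peaked in the 100 bases before the start, where 15.6% of listed CpGs belonged to it, and another 70.9% were other low CpGs. The share was 14.3% in the 100 bases after the start, 12.9% from 250 to 500 bases after it and 9.11% from 500 to 1000. It was 8.31% from 1000 to 500 bases before the start, and 2.74% from 5000 to 2000 bases before it and 1.48% from 2000 to 5000 bases after it. Mean methylation followed the opposite course, from 43.5% far before the start to 1.93% just before it and 46.1% far after it. The set and the other low CpGs had their highest shares over the same span.

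**Figure D2:**
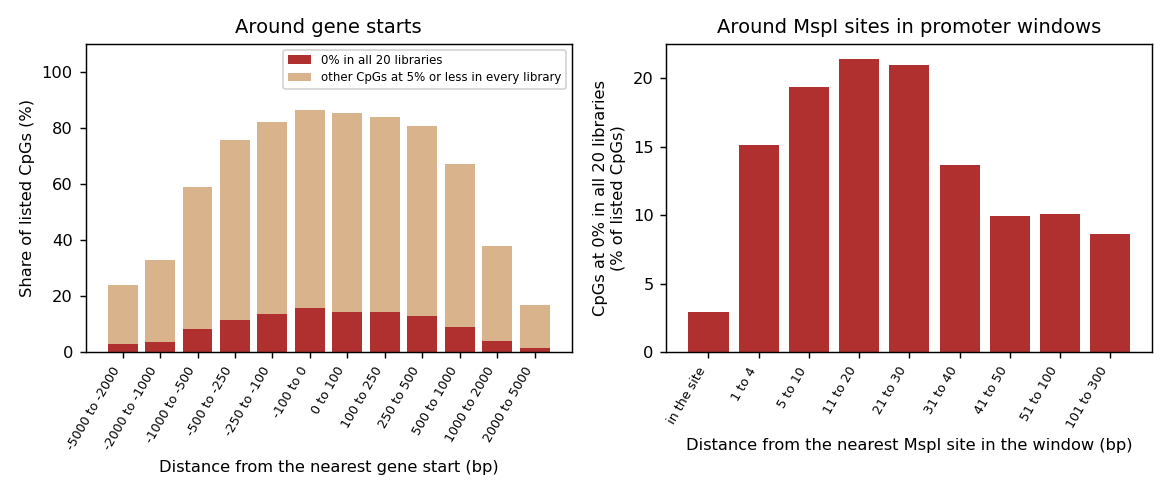
Left, share of listed CpGs (vertical axis, percent) at 0% in all 20 libraries (red) and of other CpGs at 5% or less in every library (tan, stacked above) by signed distance from the nearest annotated start (horizontal axis, bp). Right, share of listed CpGs of promoter windows at 0% in all 20 libraries by distance from the nearest MspI site, CCGG (horizontal axis, bp): it is 2.94% inside the site and 21.4% at 11 to 20 bp.

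Inside genes lay 84.5% of the set and 77.4% of all listed CpGs. Deep inside them, over 1 kb from either end, lay 16.1% of the set and 36.2% of all. Outside genes and over 1 kb from an end lay 1.42% of the set and 14.1% of all. Only 503 members (0.643%) lay outside genes and over 5 kb from any gene, against 10.4% of all listed CpGs. No autosome stood far from the others: members made up between 6.30% of listed CpGs on chromosome 7 and 7.90% on chromosome 16.

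The share of members differed by class of gene. Among protein-coding genes with at least 5 listed CpGs within 1 kb of their ends, 8696 of 12866 (67.6%) had a member there, and members were 12.8% of those CpGs, counting a CpG once for each gene it is near. Genes of long non-coding RNAs had a member in 40.7% and a member share of 10.8%. Transfer RNA genes, short genes that every cell uses, had a member at 90 of 146 and the highest share of these classes, 14.1%. Small nucleolar RNA genes had a member at 44 of 82 and microRNA genes at 86 of 265. Pseudogenes stood at the other end, with a member at 53 of 728 (7.28%), a share of 3.74% and a median mean methylation of 84.8% over their listed CpGs.

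The next description is of the sequence around members. Promoter windows of 300 bases around annotated starts were at hand for 18 of the 19 autosomes and held 140026 listed CpGs, of which 20662 belonged to the set. The windows around members had a median of 32 CG pairs and 69.7% G and C, close to the 31 and 68.7% of the other low CpGs and above the 10 and 55.3% of the highly methylated CpGs. In windows with at most 5 CG pairs 0.205% of listed CpGs were members and the mean methylation was 49.6%. The share was 2.75% with 6 to 10 CG pairs, 7.62% with 11 to 15 and 17.4% with 36 or more, where mean methylation was 0.370%.

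Members were rarely inside CCGG. This is the cut site of MspI, the enzyme commonly used for this method, while the enzyme used here is not given in the sources used here. Of members in the windows 3.81% (785) were the inner CpG of CCGG, read on either strand, against 18.8% of the other low CpGs (18641), 45.0% of the highly methylated CpGs and 19.1% of all. CCGG itself occurs in 53.5% of all windows. By distance from the nearest CCGG in the window, members were 2.94% of the listed CpGs in the site, 15.1% at 1 to 4 bp, 19.3% at 5 to 10 bp, 21.4% at 11 to 20 bp and 8.63% beyond 100 bp. Between 5 and 30 bp from a CCGG lay 70.5% of members and 47.3% of the other low CpGs. Other 4-base contexts varied less. CCGC held 23.6% of members and 14.0% of other low CpGs, GCGG 15.1% and 17.3%, and GCGC 12.9% and 15.2%.

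A few members are no CpG in the reference. In the windows, the reference had no CG at 85 members (0.411%), against 20 of the other low CpGs (0.0202%). All 85 were listed at a reference G, so they were read on the reverse strand, where the C was followed by T in 49 and by C in 36. Their placement in the set does not describe a CpG of the reference genome.

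Members sat densely. The median member had 12 listed CpGs within 50 bp, against 9 for the other low CpGs and 5 for all. A directly adjacent position was listed for 48.7% of members and for 22.5% of all. In the promoter windows, where the reference shows which adjacent positions are the 2 strands of 1 CpG, both strands were listed for 19692 CpGs. Members made up 24.7% of these positions, and 42.9% of those members had a member on the other strand. The 5559 partners outside the set were low: their mean had a median of 0.143%, and their highest value in any library had a median of 2.17%. The highest single value of such a partner was 46.7%.

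Methylation of the CpGs outside the set rose with distance from it, over a similar course in all 4 groups. The mean was 0.212% ± 0.0225 (SD, n = 20) at 23351 CpGs 1 bp away, 0.426% at 2 to 50 bp, 0.808% above 100 and up to 200 bp and 1.91% up to 500 bp. It was 9.58% ± 0.517 above 500 and up to 1000 bp, 29.4% up to 2000 bp and 57.6% ± 1.11 at 540704 CpGs beyond 5000 bp. These CpGs were in part shaped by the rule, since they were tested for membership and missed it. CpGs listed at 1 age only could not be chosen by the rule. At 13 months 4203 of them within 50 bp of a member averaged 0.228% ± 0.0273 (SD, n = 12), and 64.3% were at 0% in all 12 libraries. Beyond 1 kb 10122 averaged 60.6% ± 1.29, with 3.89% at 0% in all 12. At 3 months 13704 within 50 bp averaged 0.223% ± 0.0183 (SD, n = 8), and 76.0% were at 0% in all 8. Beyond 1 kb 66754 averaged 63.4% ± 0.636, with 5.02% at 0% in all 8. At any distance 27.9% were at 0% in every library at 13 months and 25.4% at 3 months.

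**Figure D3:**
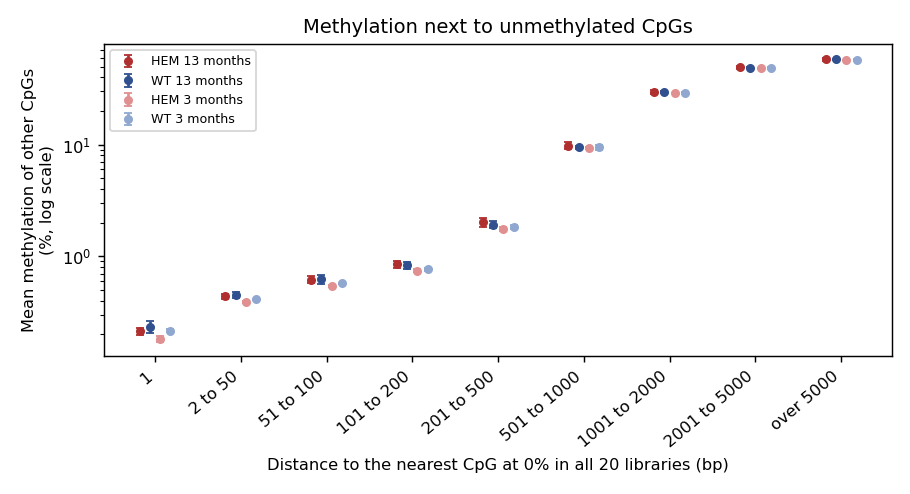
Mean methylation of CpGs outside the set (vertical axis, percent, log scale) by distance to the nearest CpG at 0% in all 20 libraries (horizontal axis, bp). Points are group means over libraries and bars are SDs (8, 4, 4 and 4 libraries): over all 20 libraries the mean climbs from 0.212% at 1 bp to 57.6% beyond 5000 bp.

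Unbroken runs of unmethylated CpGs were short. A run is a series of consecutive listed CpGs that all belong to the set, with gaps of at most 500 bp. There were 51429 runs, and 36506 of them (71.0%) were a single CpG. Runs of 5 or more CpGs numbered 1387 and held 10.8% of the set. Runs of 10 or more numbered 47, with a median span of 37 bp, and 35 of them (74.5%) lay within 1 kb of a gene end. No run reached 20 CpGs: the longest held 19.

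Next come the 10 genes with the longest runs. The longest run lay in Usp3, at chr9:66592427-66592462, inside the gene and 653 bp from its start, next to 105 other listed CpGs within 1 kb that averaged 0.154% ± 0.0670 (SD, n = 20). The run of 18 CpGs of Abhd12, a lysophosphatidylserine lipase, lay at chr2:150904693-150904765, inside the gene and 14 bp from an end of its annotated span. No start of Abhd12 was in the promoter table, so whether this end is its start could not be told. Ugcg had 16 CpGs at chr4:59189470-59189515, across the outer end of its annotated span and 35 bp before the start in the promoter table. Its first part is the last block of capitals in the sequence above. Spred1 had 15 CpGs spread over 398 bp at chr2:117120639-117121036, ending 35 bp before its start, and 42 members in all in and near the gene. Ankrd44, which encodes an ankyrin repeat protein, had 14 CpGs at chr1:54926448-54926489, inside the gene and 61 bp from a start.

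The other 5 genes shared 3 runs of 13 CpGs. One, at chr15:81190435-81190529, lay inside Mrtfa, a coactivator of serum response factor, and 324 bp from the long non-coding RNA gene 4930483J18Rik. Another, at chr7:132931450-132931497, lay inside both Zranb1, a deubiquitinase gene, and the long non-coding RNA gene 1500002F19Rik. The last, at chr4:33248114-33248152, lay inside Pnrc1, a nuclear receptor coactivator gene, 635 bp from its start. Around the runs of these 10 genes the other CpGs within 1 kb averaged between 0.154% (Usp3) and 1.89% (Mrtfa). The surroundings were not uniform: the highest single value within 1 kb was 66.7% beside the run of Ankrd44 and 61.6% beside that of Mrtfa. None of the 10 genes is on the lists of tissue-restricted genes used below. With gaps of at most 100 bp, or with no limit, the same 10 genes came first. With adjacent positions averaged into 1 site, 5 of the 10 remained, the longest run held 13 sites, and runs of 5 or more numbered 385. Usp3, Ugcg, Ankrd44, 4930483J18Rik and Pnrc1 were then no longer among the first 10, and 1500002F19Rik and Zranb1 came first.

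Some runs lay far from any annotated gene. The longest of these held 12 CpGs in 22 bp at chr15:68363047-68363068, and the nearest gene was that of the microRNA Mir30d, 21758 bp away. Around it 95 other CpGs within 1 kb averaged 0.154% ± 0.0518 (SD, n = 20). The next held 8 CpGs 7665 bp from Gm25514, then 6 CpGs 30054 bp from D130051D11Rik and 6 CpGs 11180 bp from Ercc1, a DNA repair gene. A run of 5 CpGs on chromosome 18 lay 15553 bp from Gm20544. The other CpGs around these 4 averaged from 0.189% (D130051D11Rik) to 1.87% (Gm20544), so each run lay in a low stretch.

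Genes used in every cell had a share of members near that of all protein-coding genes. Of 23 listed housekeeping genes with at least 5 listed CpGs within 1 kb of their ends, 18 had a member, members were 14.3% of those CpGs, and 92.3% were at 5% or less in every library. Over all protein-coding genes these shares were 12.8% and 79.5%. Rps18, which encodes a protein of the small ribosomal subunit, had 23 members of 112, Rab7, a GTPase of late endosomes, 16 of 53, and Psmb4, a proteasome subunit gene, 13 of 32. The mean over the CpGs of Rab7 had a median of 0.102% over the 20 libraries, from 0.00948% to 0.370%. Actb, which encodes β-actin, had no member among 9 and averaged 6.39% ± 2.03 (SD, n = 20). Psmb2, another proteasome subunit gene, had none among 13, although all 13 were at 5% or less in every library and averaged 0.272%. These counts describe the genes and were not tested.

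Regulators of development were low in methylation and poor in members. Of 34 such genes 13 had a member, yet members were 23 of 1677 CpGs, or 1.37%, while 46.2% were at 5% or less in every library and the median mean over genes was 2.13%. Gsc, a homeobox gene of the embryonic organizer, had the most, 7 of 100, followed by the homeobox gene Six2 with 4 of 137. Myod1, the muscle determination gene, had none among 17 and averaged 8.71% ± 1.70 (SD, n = 20), and T, the gene of brachyury, had none among 62 and averaged 5.36% ± 0.758. The mean over the 62 CpGs of T ran from 3.64% to 6.91% with a median of 5.32%. Every library was thus above 0 there.

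The Hox genes, which pattern the body axis, had fewer still. Of 35 of them 6 had a member, and members were 14 of 1832 CpGs, or 0.764%. Hoxb8 had 5 of 27, Hoxa13 4 of 105 and Hoxd1 2 of 96. Hoxd4 had none among 20 and averaged 23.3% ± 5.45, from 15.8% to 32.7%, and Hoxb1 none among 8 with 12.8% ± 2.37. The median mean over the 35 genes was 3.30%, above the 0.183% of the housekeeping genes and the 0.824% of all protein-coding genes. Over the 1730 distinct CpGs the mean at 13 months was 4.06% ± 0.711 over the 8 HEM libraries and 3.66% ± 0.483 over the 4 WT libraries (SD). The values were 2.67% ± 0.335 and 3.12% ± 0.213 at 3 months (SD, n = 4 each, HEM and then WT). Over all protein-coding genes the means at 13 and 3 months were 5.04% and 4.85% in HEM and 4.998% and 4.89% in WT. Not every list was higher at 13 months. Germline genes were at 59.9% and 61.7% in HEM and 60.3% and 60.6% in WT. Microglia genes were at 9.53% and 10.8% in HEM and 10.2% and 10.7% in WT. The ages were deposited as separate sets, so age cannot be told apart from set. These means hold the members themselves, which are at 0 throughout, and were not tested.

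Germline genes were mostly methylated, and the members among them lay beside another coding gene. Of 29 germline genes 2 had a member, with 13 members among 518 CpGs, or 2.51%, and the median mean over genes was 77.2%. Dpep3, a testis dipeptidase gene, averaged 95.6% ± 1.42 (SD, n = 20), and Rpl10l, a testis copy of a ribosomal protein gene, 94.2% ± 1.17. Reads of a gene copy may map to its parent, so the second value is uncertain. Ddx25 had 11 members among 53 CpGs, all 11 within 1 kb of an end of Pus3, a gene of RNA modification used broadly, and 8 of them nearer to it than to Ddx25. Gdf9, an oocyte growth factor gene, had 2 members among 5, both nearer to Uqcrq, which encodes a subunit of respiratory complex III. The stretch of Ddx25 printed above is the sequence between both genes, with 7 of its 11 members.

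Genes of tissues outside the brain had few members. As in every list, only genes with at least 5 listed CpGs within 1 kb of their ends were counted. These were 7 of 20 muscle and heart genes, 3 of 19 pancreas and gut genes and 7 of 19 liver genes. For skin they were 8 of 15 and for lymphoid and erythroid genes 10 of 23, and the other genes could not be judged. None of the 7 muscle and heart genes (179 CpGs) and none of the 3 pancreas and gut genes (23 CpGs) had a member. The median mean over the muscle and heart genes was 28.1%, from 9.04% to 86.7%, over the pancreas and gut genes 12.9%, from 1.52% to 34.1%, and over the liver genes 63.7%. Among the genes of highest mean, Mb, the myoglobin gene, averaged 84.3% ± 2.20 over 15 CpGs and Myh6, a heart myosin gene, 86.7% ± 2.07 over 6. Slc5a1, a glucose transporter gene of the gut, averaged 34.1% ± 2.88 over 10 CpGs and Cela1, an elastase gene, 12.9% ± 4.19 over 7. Of 7 liver genes Apoa2 alone had a member, 1 of 9, and it was nearer to Tomm40l, a gene of mitochondrial import, than to Apoa2. The liver genes Apob and Fgb averaged 88.0% ± 3.90 and 88.6% ± 2.95. Of 10 lymphoid and erythroid genes Cd4 alone had members, 4 of 25, all nearer to Gpr162, while Zap70, a T-cell kinase gene, had none and averaged 69.4% ± 7.06. The median mean over the lymphoid and erythroid genes was 33.5% and over the skin genes 12.6%. Of 8 skin genes 2 had a member: Krt10, a keratin gene of the epidermis, with 7 of 29 and no other coding gene end within 1 kb of them, and Lama3, a laminin gene, with 1 of 29. Flg, the filaggrin gene, had 1 member but only 4 listed CpGs, while Krt5, another keratin gene, and Epcam, an epithelial adhesion gene, had none and averaged 73.6% ± 3.61 and 35.2% ± 1.37.

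**Figure D4:**
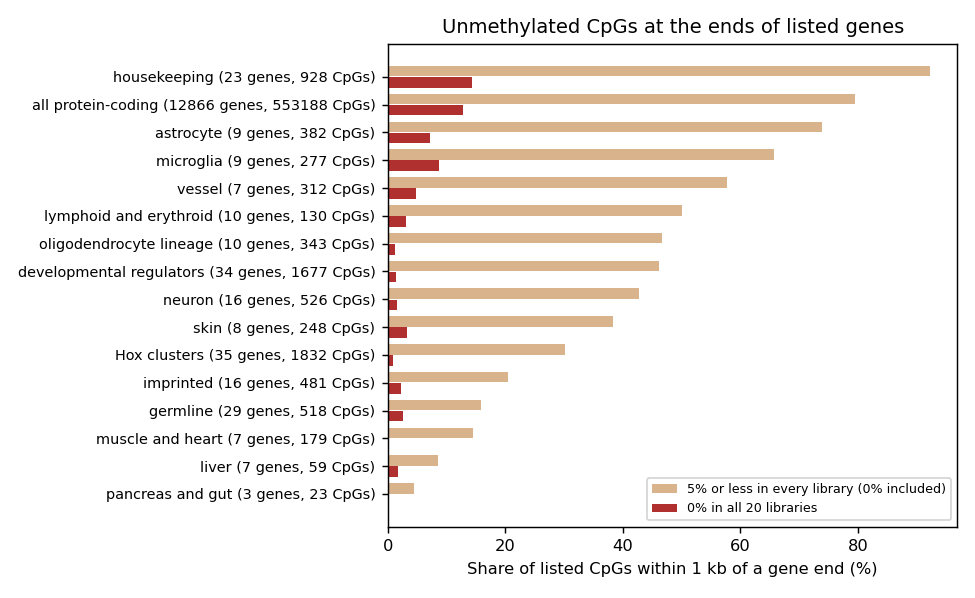
Share of listed CpGs within 1 kb of a gene end (horizontal axis, percent) at 0% in all 20 libraries (red) and at 5% or less in every library, 0% included (tan), for each list of genes (rows, with the number of genes and of CpGs). Only genes with at least 5 listed CpGs there are counted. Red shares are 14.3% for housekeeping genes, 1.37% for developmental regulators and 0.764% for the Hox clusters, while tan shares run from 92.3% to 4.35%.

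Among genes that mark brain cells, members were at genes of every cell type listed, mostly at smaller shares than over all protein-coding genes. Over those, 67.6% of genes had a member and members were 12.8% of the CpGs. Again only genes with at least 5 listed CpGs were counted. These were 9 of 11 astrocyte, 9 of 22 microglia, 7 of 14 vessel, 16 of 19 neuronal and 10 of 13 oligodendrocyte genes. Of the genes counted, a member was at 77.8% of astrocyte genes, 44.4% of microglia, 42.9% of vessel, 31.25% of neuronal and 20% of oligodendrocyte genes. Members were below 12.8% of the CpGs in each of these lists. Of 9 microglia genes 4 had a member, with 24 of 277 CpGs (8.66%), and the median mean over the genes was 13.2%. Tgfbr1, a TGF-β receptor gene that many cell types use, supplied 18 of them among its 58 CpGs, with a mean of 0.130% ± 0.112 (SD, n = 20) over all 58. Mertk, a phagocytic receptor gene, had 2 of 24. Selplg, an adhesion ligand gene, had none among 9 and averaged 73.3% ± 4.07, and C1qc, a complement gene, had none among 19 and averaged 54.9%. The mean of C1qc varied widely over the libraries, from 29.97% to 70.03% with a median of 54.6%.

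Astrocyte genes had a member at 7 of 9, with 27 of 382 CpGs (7.07%) and a median mean of 1.99%. Glul, the glutamine synthetase gene, had 9 of 58, Fgfr3 and the glutamate transporter gene Slc1a2 4 each, and Gfap, of the astrocyte filament, none among 15 with a mean of 68.7% ± 7.08. Atp1b2, a sodium pump gene, had none among 47 although 44 of them were at 5% or less in every library. The 3 members near the astrocyte gene Aldoc were all nearer to Pigs. Neuronal genes had a member at 5 of 16, with 8 of 526 CpGs (1.52%) and a median mean of 2.21%: the vesicular glutamate transporter gene Slc17a7 had 3, Eno2 had 2 and Tubb3 had 1. Elavl3 had none among 78 and averaged 11.5% ± 0.563, and Gad2, an enzyme of GABA synthesis, none among 8 with 10.2% ± 3.07. Oligodendrocyte genes had a median mean of 5.25%, with 46.6% of their CpGs at 5% or less in every library, and a member at 2 of 10: Cnp with 3 of 33 and Olig2 with 1 of 23. The 2 genes of highest mean without a member, the myelin genes Mobp and Mag, averaged 76.0% ± 4.06 and 72.9% ± 5.29. Vessel genes had a median mean of 5.98% and a member at 3 of 7: the glucose transporter gene Slc2a1 with 10 of 75, Kdr with 4 of 30 and Flt1 with 1 of 92, while Kcnj8 and Anpep had none and averaged 29.5% ± 0.595 and 15.4% ± 1.59.

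Imprinted genes, of which certain stretches are methylated on 1 parental copy, had a member at 1 of 16, Inpp5f, with 11 of 51 CpGs. The listed CpGs near the ends of Inpp5f averaged 0.585%. Mest and H19 had none and averaged 58.5% ± 4.82 and 55.7% ± 3.79 (SD, n = 20). The median mean over the 16 genes was 39.1%.

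Over the 15 lists, neighbours of some genes carry the same CpGs. The 13 members of germline genes, the 4 of Cd4 and the 1 of Apoa2 were all within 1 kb of another coding gene that is not on the list. For developmental, Hox, skin, microglia, oligodendrocyte, vessel and imprinted genes no member was, and for housekeeping genes 40 of 133 were. For astrocyte genes 3 of 27 were and for neuronal genes 3 of 8. The neuronal ones were the 2 members of Eno2 and the 1 of Tubb3, and none was nearer to the neighbour. In Rps18, 20 of the 23 members were within 1 kb of an end of Vps52, a gene of vesicle traffic.

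Most members lay in low surroundings, and a few did not. For 76453 members (97.8%) at least 5 other CpGs outside the set were listed within 200 bp. Their mean had a median of 0.194%, and it exceeded 5% for 151 members, 20% for 83 and 50% for 60 (0.0785%). The member with the most methylated surroundings, at position 103717089 of chromosome 13 and 9456 bp from Gm30551, had 8 neighbours that averaged 95.4% ± 2.28 (SD, n = 20). A member inside Dgkg, a lipid kinase gene, at 22500412 of chromosome 16 had 6 neighbours at 95.3% ± 1.26. Inside Pold1, a DNA polymerase gene, 8 neighbours of the member at 44541016 of chromosome 7 averaged 94.7% ± 1.20. The next were a member at 61118131 of chromosome 16, 48037 bp from Gm23852, with neighbours at 94.7% ± 1.66, and a member at 61524032 of chromosome 10 inside Lrrc20 with neighbours at 94.5% ± 1.43. In each of the 5 the mean over the neighbours was above 90% in every library. No reference base was at hand at these positions.

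Since the members themselves are at 0 in every library, the groups were compared over CpGs outside the set with 2 measures, the share at exactly 0% and the mean of CpGs within 200 bp of a member. The first covered 1030332 CpGs and the second 347869, and 8 two-sided exact permutation tests were made and adjusted together by Benjamini and Hochberg. At 13 months the share at 0% was 36.9% ± 2.37 in HEM (SD, n = 8; lowest 33.3%, median 37.2%, highest 39.9%). The 4 WT libraries were at 36.7%, 40.9%, 37.2% and 42.5%, with a mean of 39.3% ± 2.82 (SD). The ranges overlapped, and the difference of -2.47 points had an exact permutation p of 0.135 (adjusted 0.229). At 3 months it was 41.4%, 42.9%, 40.1% and 39.0% in HEM and 40.2%, 43.1%, 38.4% and 39.1% in WT. That difference was 0.662 points with an exact permutation p of 0.686 (adjusted 0.784). The difference between the 2 genotype contrasts was -3.13 points with a permutation p of 0.135.

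The CpGs beside the set were low in every library. At 13 months their mean was 0.532% ± 0.0338 in HEM (SD, n = 8; lowest 0.481%, median 0.549%, highest 0.560%) and 0.548%, 0.552%, 0.569% and 0.480% in WT. The groups overlapped, with a difference of -0.00578 points and an exact permutation p of 0.834 (adjusted 0.834). Within the same-numbered pairs of libraries 1, 6 and 7 the differences were 0.00924, -0.00895 and 0.0636 points. Their mean of 0.0213 points has the opposite sign, with an exact permutation p of 0.500 where 3 pairs allow no less than 0.250. At 3 months it was 0.462%, 0.458%, 0.472% and 0.483% in HEM and 0.496%, 0.488%, 0.496% and 0.494% in WT. Each HEM library was below each WT library there, and the difference in means was -0.0249 points. The exact permutation p of 0.0286 is the smallest this design allows, and the adjusted value of 0.0762 did not pass. The genotype contrasts of the 2 ages differed by 0.0192 points with a permutation p of 0.425.

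Between ages, which were deposited as separate sets and cannot be told apart from them, no difference passed after adjustment. In HEM the share at 0% at 13 months minus that at 3 months was -4.003 points (exact permutation p = 0.0182, adjusted 0.0727), and the difference in the mean beside the set was 0.0627 points (exact permutation p = 0.0141, adjusted 0.0727). Without HEM 13 months replicate 10 or without HEM 3 months replicate 7 both passed, each with an adjusted permutation p of 0.0485. Without HEM 13 months replicate 8 the mean beside the set passed with the same value. In WT the differences were -0.876 points in the share (exact permutation p = 0.629, adjusted 0.784) and 0.0435 points in the mean (exact permutation p = 0.143, adjusted 0.229). The share of values above 0 and below 1% also differed in the mean. It was 6.39% ± 2.09 (SD, n = 8) in HEM at 13 months and 4.31% ± 1.65, 4.51% ± 0.749 and 4.63% ± 1.53 in WT at 13 months, HEM at 3 months and WT at 3 months (SD, n = 4 each). HEM 13 months replicate 8 had the highest such share, 10.5%, and the lowest share at 0%. The part of this in the differences was not tested.

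**Figure D5:**
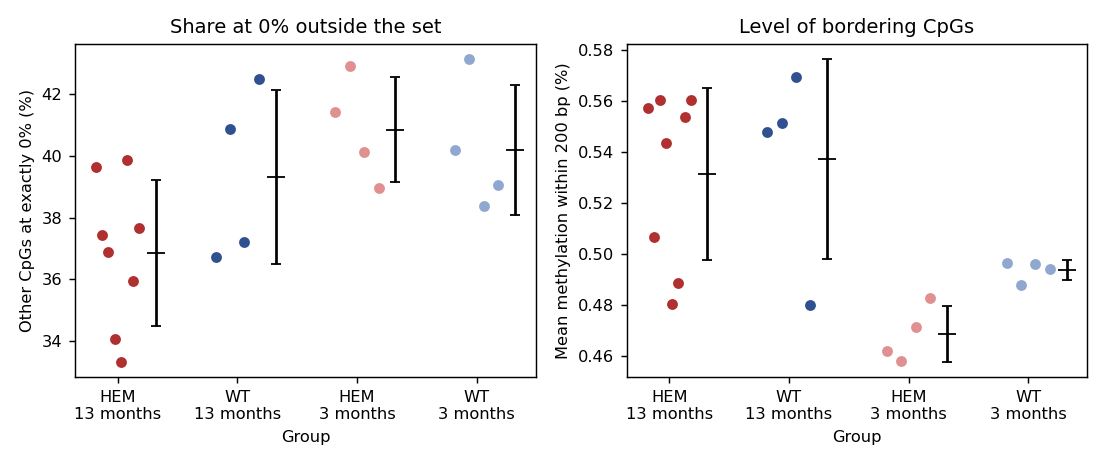
Left, share of CpGs outside the set at exactly 0% (vertical axis, percent) in each library by group. Right, mean methylation of CpGs within 200 bp of the set (vertical axis, percent; the axis does not start at 0). Points are libraries and black marks are means with SDs: the 4 HEM libraries at 3 months lie between 0.458% and 0.483%, below the 4 WT libraries of that age.

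No tile bordering the set was called between genotypes. Tiles of 1000 bp with at least 3 CpGs outside the set and a mean of 5% to 95% were tested with limma on a log2 scale. Calls were tiles with an adjusted p under 0.05 whose group means were at least 5 points apart. The limits on the mean left out most tiles that also hold a member. The bordering tiles kept are thus not the low stretches in which most members lay. Without the limits 13151 such tiles were tested at 13 months and 13139 at 3 months, with 0 called. The minimum of 5 points still applied there, so tiles near 0% could hardly be called and this 0 does not describe them. At 13 months 0 of the 494 tiles within the limits that also hold a member were called, against 0% of all 68440 tiles. Of the 494, 12 (2.43%) had an unadjusted p under 0.05, against 5.52% of all. At 3 months 0 of 478 were called, against 0% of all 68238, and 5 (1.05%) had an unadjusted p under 0.05, against 4.4% of all. The median difference over the bordering tiles was 0.224 points at 13 months and -0.0930 points at 3 months, and over all tiles -0.175 and -0.0458 points. Between ages 0 of 490 bordering tiles were called in WT, against 0.00731% of all, and 0 of 488 in HEM, against 0.00292% of all. The unadjusted p was under 0.05 in 16 (3.27%) in WT, against 5.05% of all, and in 70 (14.3%) in HEM, against 13.7% of all.

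The bordering tiles of smallest p at 13 months had adjusted limma p-values from 0.883 to 0.889. Higher in HEM in the mean were a tile in Wdr4, a gene of transfer RNA methylation, with 92.2% ± 1.12 (n = 8) against 83.0% ± 9.50 (n = 4), and a tile 6986 bp from Znfx1 with 59.96% ± 7.12 against 47.6% ± 6.19. A tile in Maml3, a coactivator of Notch, was at 9.40% ± 2.29 against 6.09% ± 1.58. Lower in the mean were tiles 172994 bp from Mei4 (92.2% ± 1.38 against 95.1% ± 1.58), in Llgl2 (93.6% ± 1.19 against 96.0% ± 2.14) and in Gm39783 (84.4% ± 2.87 against 89.1% ± 1.66). The libraries of the groups overlapped in all 6 tiles.

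At 3 months all 6 such tiles had an adjusted limma p of 0.995 (n = 4 each). Tiles in Gpsm3, Csmd1 and Thap7 had higher HEM means, with 17.5% ± 6.46 against 10.9% ± 3.76, 90.6% ± 3.21 against 85.9% ± 3.67 and 15.9% ± 1.16 against 12.0% ± 3.26. Tiles 3986 bp from Secisbp2l, 30887 bp from Spring1 and in Rarb, a retinoic acid receptor gene, had lower ones. Near Secisbp2l the HEM libraries were at 4.09%, 4.74%, 4.55% and 7.32% and the WT libraries at 11.1%, 7.05%, 9.34% and 9.41%, which overlap. In Rarb they were at 9.29%, 6.72%, 11.1% and 12.0% against 16.5%, 12.7%, 12.9% and 18.9%, which do not.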

How the data were processed

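Reduced representation bisulfite sequencing data of 20 mouse libraries were used. The build was mm10, and the tools named are Bowtie2 and methylKit without versions, per the submitters' processing notes. The deposited values are percent methylation per listed CpG, made by the authors, with no read counts or coverage, so depth and precision per value are unknown. Tables of the whole series were not used, and 1 value column of the 13-month table equals no library. Groups came from the labels. In the tiles, counts of methylated and unmethylated reads were to be tested if present, so percentages were used in their place.

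CpGs of the 19 autosomes listed at both ages were joined by position, and members were those at 0% in all 20 libraries. Gene ends came from the RefSeq gene table of GRCm38.p6, which has no strand, and starts and sequences from RefSeq promoter windows (250 bases before to 50 after a start) of 18 autosomes. All tiles with at least 3 CpGs outside the set and a mean of 5% to 95% were tested with limma 3.58.1 (R 4.3.3) on log2((percent + 1) / (100 - percent + 1)), with Benjamini-Hochberg adjustment. A call needed an adjusted p under 0.05 and 5 points. For values per library, exact permutation tests were used, two-sided (scipy 1.17.1). Both tests were tested on simulated data. No other tool was run on the tiles. The 15 gene lists (328 genes), the members and the tests were chosen with earlier results of these data known, so the lists give no independent support.

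Named genes followed a rule. It took the 10 genes with the longest runs and, per list, the 3 genes with most members and the 2 genes without a member of highest mean. It also took the 5 longest runs over 5000 bp from a gene, the 3 bordering tiles of smallest p in each direction per genotype comparison, and the 5 members of most methylated surroundings. Aldoc and the neighbours Pus3, Uqcrq, Tomm40l, Gpr162, Pigs and Vps52 fall outside it and were named after their values were seen. Some genes that the rule takes are not reported here. At 13 months same-numbered HEM and WT libraries deviated together in the tiles, with correlations of 0.180, 0.409 and 0.100 for replicates 1, 6 and 7, and the labels do not say what a number marks. Alternatives covered the level that defines the set, ages, strands, distances, tile settings, the replicate number as a block, and the removal of each library in turn.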

Additional observations from a re-analysis of the deposited data

Results flagged for a closer look

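Of 248 groups of library values examined, 11 (4.44%) held a library far from the others of its group, and chance marks about 1 in 20. All 11 are means within 1 kb of the ends of a listed gene. Among low genes, Six2 was at 1.28% in WT 3 months replicate 5 (next 0.953%) and Hoxb8 at 3.25% in WT 13 months replicate 6 (next 2.25%). Gdf9 was at 1.40% in HEM 3 months replicate 3 and at 0.142% in WT 3 months replicate 1, with the next library at 0 in both groups. Only 5 CpGs were listed for Gdf9, 2 of them members, and their highest single value was 7%, so few values above 0 set these means. Cd4 was at 0.858% in HEM 13 months replicate 3 (next 0.284%) and Inpp5f at 1.04% in WT 3 months replicate 4 (next 0.443%). Lama3 was at 4.25% in HEM 3 months replicate 7 (next 6.41%) and Eno2 at 8.03% in WT 13 months replicate 7 (next 6.23%). Among methylated genes, Apob was at 79.5% in HEM 13 months replicate 8 (next 87.6%), Flg at 55.2% in WT 13 months replicate 1 (next 64.2%) and Mest at 71.4% in HEM 13 months replicate 3 (next 60.6%).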

How the results depend on the processing

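The size of the set follows its definition. It was 128044 with the 13-month libraries only, 209346 with the 3-month libraries only, 187629 at 1% or less and 508781 at 5% or less in every library, and 48232 with adjacent positions as 1 site. Leaving out a library gave 81244 to 86559. The share within 1 kb of a gene end was 83.4% at 1% or less. It was 67.6% within 500 bp, 94.6% within 5000 bp and 78.3% for coding genes only. With each library left out it ran from 82.4% to 82.5%.

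With a library left out, the difference in the share at 0% ran from -3.34 to -1.41 points between genotypes at 13 months and from -0.0247 to 1.64 at 3 months. Between ages it ran from -1.93 to 0.105 in WT and from -4.63 to -3.32 in HEM, with adjusted permutation p from 0.0485 to 0.129 in HEM. It changed sign at 3 months without HEM replicate 2 and between ages in WT without WT 3 months replicate 3. The difference in the mean beside the set ran from -0.0248 to 0.00491 between genotypes at 13 months and from -0.0297 to -0.0214 at 3 months. Between ages it ran from 0.0328 to 0.0626 in WT and from 0.0586 to 0.0699 in HEM, there with adjusted permutation p from 0.0485 to 0.114. At 13 months it changed sign without HEM replicate 8 or 10 or WT replicate 6, and within 500 bp, where it was 0.00747. The cause was not tested.

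Every alternative run gave 0 called bordering tiles in each comparison, the replicate block included: with the block 0 were called between genotypes at 13 and 3 months and between ages in HEM. No alternative dropped both the limits on the tile mean and the minimum difference, so tiles near 0% could hardly be called in any. Chosen after seeing the data, a replicate block of the library values by same-numbered pairs turned the sign of the share at 0% at 3 months (-0.897 points, exact permutation p = 1) and of the mean beside the set at 13 months (0.0213 points, exact permutation p = 0.500). It turned no other sign, and no block of 2 or 3 pairs can pass. In WT the ages share only 1 replicate number, so the block could not be fitted. In the tiles, same-numbered libraries at 3 months correlated at 0.122 and -0.271, and those between ages in HEM at 0.0567, -0.279 and -0.0268. So few pairs cannot show whether the numbers pair libraries there. No coverage minimum could be tried without coverage. The unknown depth limits every count of exact zeros.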
